A study of Mus musculus with 7 samples.

Results

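The genes described here are 10 genes of the AP-1 and immediate early response, taken by name from 57126 genes in the deposited expression table. They are the Fos family genes Fos, Fosb, Fosl1 and Fosl2, the Jun family genes Jun, Junb and Jund, the stress-induced bZIP gene Atf3, the zinc finger gene Egr1 and the early growth factor response gene Ier2. Each symbol matched a single protein-coding Ensembl gene. All 10 were among the 11253 genes with a TPM (transcript abundance per length, scaled to a fixed total) of 1 or more in 3 or more libraries, of which 7239 were protein-coding. The RNA is that of 4T1 cells, a triple-negative mammary carcinoma line of BALB/c mice, which expressed mCherry and were recovered from mammary fat pad tumors by fluorescence-activated sorting. Fat pads of control mice had been injected with 100 µL of phosphate-buffered saline (PBS), and those of the other mice with 0.3 units of Botox, a botulinum toxin preparation that stops nerve endings from releasing transmitter, in an equal volume. Tumor cells followed 7 days later, and the question was how prior denervation bears on the cancer cell transcriptome. Each of the 3 PBS and 4 Botox libraries is labelled with its own mouse, and since the treatment field of the labels reads the same for all 7, the groups rest on the sample titles. All groups share the 1 cell line and its mCherry marker, and the sources used here do not give the animals' age or the time from injection to sorting.

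AP-1 is a family of dimers that bind DNA through a basic leucine zipper (bZIP). Fos family proteins dimerize only with partners such as the Jun proteins, whereas Jun proteins can also pair with each other and with ATF proteins. Transcripts of Fos, Fosb, Egr1, Jun, Junb, Atf3 and Ier2 rise within minutes of growth factor, stress or injury signals through MAP kinases, serum response factor and CREB, without new protein synthesis, and decay quickly. Jund is expressed more steadily, and Fosl1 and Fosl2 follow later after a stimulus. Enzymatic dissociation and sorting of tissue are also known to induce these genes, and the part of such handling in these values was not tested.

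Promoters of 7 members (Fos, Fosb, Fosl2, Jun, Junb, Jund and Atf3) were read from RefSeq (build GRCm38.p6), as windows of 300 bases from 250 bases before the annotated start. Those of Fos and Fosb, whose profiles over the libraries were alike, of Jun and Junb, whose profiles were also alike, and of Atf3 are printed over the 120 bases just before the start, 5′ to 3′ on the gene's own strand. Capitals mark TGACG on either strand (CGTCA when read on the opposite strand), the core of the cyclic AMP response element, together with TGACNTCA, an element bound by ATF and Jun dimers, and TATAAA, the TATA box. TGACNTCA can overlap TGACG where its N is G.
Fos, chr12:85473770-85473889, plus strand: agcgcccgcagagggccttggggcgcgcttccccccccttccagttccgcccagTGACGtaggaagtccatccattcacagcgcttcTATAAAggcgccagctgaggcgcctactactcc
Fosb, chr7:19310046-19310165, minus strand: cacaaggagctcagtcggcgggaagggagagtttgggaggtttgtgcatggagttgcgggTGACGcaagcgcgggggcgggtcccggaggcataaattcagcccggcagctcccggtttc
Junb, chr8:84978749-84978868, minus strand: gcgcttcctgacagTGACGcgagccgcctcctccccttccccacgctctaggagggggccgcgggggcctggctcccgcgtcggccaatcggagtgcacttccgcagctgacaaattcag
Jun, chr4:95052223-95052342, minus strand: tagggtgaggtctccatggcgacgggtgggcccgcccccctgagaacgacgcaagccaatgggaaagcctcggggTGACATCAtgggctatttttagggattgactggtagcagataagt
Atf3, chr1:191183334-191183453, minus strand: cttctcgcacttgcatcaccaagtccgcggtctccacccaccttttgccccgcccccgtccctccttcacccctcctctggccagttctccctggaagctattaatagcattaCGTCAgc

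Within the full windows, TGACG on either strand was found in 4 of the 7 promoters, those of Fos, Fosb, Junb and Atf3, and in 20.8% of 32851 promoter entries of the same length outside chromosome 18. With the start base counted as 0, the first base of the motif lay at -129 and -66 in Fos, at -60 in Fosb, at -106 in Junb and at -7 in Atf3. Jun held TGACNTCA at -45, a motif in 8.83% of entries, and TATAAA, in 13.6% of entries, was found in Fos at -33 and in Junb at the start. The AP-1 element TGANTCA (7.81% of entries) and the serum response element known as the CArG box (1.63%) were in 0 of the 7 windows. Sequence farther upstream was not searched, so these absences do not show that a gene lacks either element. The promoters of Fosl1, Egr1 and Ier2 were not read. CCAAT, in 37.4% of entries, was found in Jun, Junb and Atf3. All motifs were searched on both strands, and the windows of Fosl2 and Jund held none of them. These are letter matches in a short window and describe no binding.

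The libraries differed in how much of their TPM was left for messenger RNA. Nuclear protein-coding genes held 10.4% to 11.7% of TPM in the PBS libraries and 8.68%, 6.996%, 11.2% and 3.71% in Botox 1 to 4. The short 7SL RNA held 47.9% to 52.0% after PBS and 53.0% to 70.4% after Botox. The median log2 fold change of protein-coding genes was -0.45 on the deposited scale, so TPM is given as deposited and fold changes are given relative to protein-coding genes as well. For the latter, TPM was divided by a size factor, the median ratio of nuclear protein-coding genes to their geometric mean, which was 1.19 to 1.37 in the PBS libraries and 1.042, 0.861, 1.19 and 0.468 in Botox 1 to 4. On that scale the median of protein-coding genes was -0.05. Estimated reads were 8.56 to 13.6 M per library and 356 to 32610 per member and library, lowest for Fosl1 in Botox 4. Botox 2 and Botox 4 held few weakly detected genes: 2.98% and 2.41% of their detected genes had 1 to 4 estimated reads, against 13.9% to 23.5% in the other libraries.

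The sorted libraries held tumor and macrophage transcripts. The summed level of 6 tumor epithelial markers was 173 to 209 scaled TPM after PBS and 158 to 214 after Botox. The sum of 10 macrophage markers was 586 to 781 scaled TPM after PBS and 173, 1066, 539 and 866 in Botox 1 to 4. Markers of neutrophils (6 genes, 0.924 to 11.998 scaled TPM in all libraries), fibroblasts (6, 2.51 to 8.19), B cells (5, 0 to 12.3), T and NK cells (6, 0.207 to 1.103), endothelium (5, 0.213 to 1.43), nerve (7, 0.433 to 0.836) and adipocytes (4, 0 to 0.101) were low. Cd3d and Nefl were at 0 in every library. In such bulk libraries fewer cells of a type and less RNA per cell cannot be told apart.

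Fos, Jun and most other members were among the most abundant messenger RNAs of these sorted libraries, with shares that depend on the gene length used. Since the libraries held macrophage as well as tumor transcripts, these levels were not assigned to a cell type. On the deposited scale, which divides by genomic span with introns included, the members together held 3.33% to 3.91% of nuclear protein-coding TPM after PBS and 5.14%, 3.04%, 3.44% and 3.95% in Botox 1 to 4. By mean TPM over all libraries, Jun ranked 14th and Fos 16th of the nuclear protein-coding genes, and the lowest member, Fosl1, ranked 970th. Of the PBS means on that scale, Fos (925 ± 14.5 TPM, SD, n = 3) and Jun (822 ± 53.4) were highest, followed by Jund (569.8 ± 57.4), Junb (522 ± 63.4), Fosb (484 ± 12.4), Egr1 (357 ± 26.5), Ier2 (293 ± 11.4), Fosl2 (52.2 ± 12.3), Atf3 (19.5 ± 5.30) and Fosl1 (13.2 ± 2.96). The PBS libraries of Jund overlapped those of Junb, those of Junb overlapped those of Fosb, and those of Atf3 overlapped those of Fosl1. Span matters most for Atf3, whose exons in GENCODE M21 cover 2154 of 47744 bases, or 4.51%, against 100% for Jun. Divided by exonic length and rescaled to the same protein-coding total, Atf3 stood sixth of 10 instead of ninth, at 175 ± 48.0 after PBS, and Fos stayed highest of the 10 after PBS at 541 ± 15.1. Per exonic length the members' share of the 21526 genes with such a length was lower, at 1.81% to 2.23% after PBS and 2.90%, 1.68%, 2.00% and 2.21% in Botox 1 to 4, and Fos ranked 14th, Jun 25th, Atf3 60th and Fosl1 737th. Exonic lengths come from an older gene annotation than the deposited spans, and the sources used here do not say whether intronic reads were counted.

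**Figure D1:**
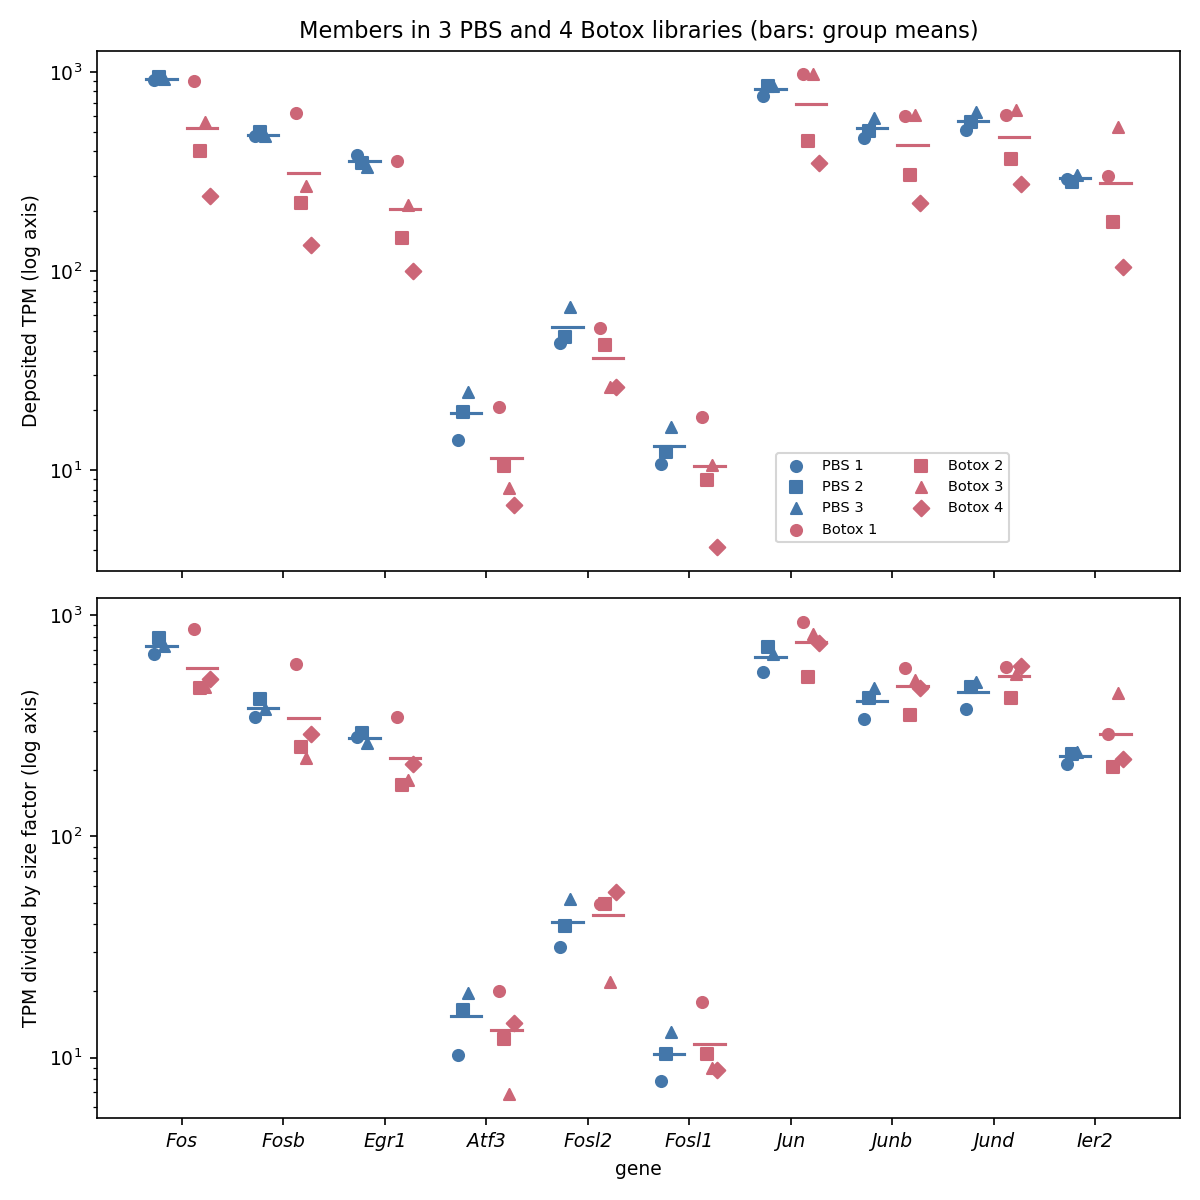
TPM of the 10 members in each library on log axes, as deposited (top) and divided by the size factor (bottom), with PBS libraries in blue, Botox libraries in red, a marker shape for each replicate and bars at the group means. In Fos, Fosb and Egr1, Botox 2 to 4 lie below all PBS libraries in both panels, while Botox 1 lies above the PBS libraries in the bottom panel.

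No member passed the test for a difference between Botox and PBS. With limma, 0 of 10 members had a Benjamini-Hochberg adjusted p under 0.05 relative to protein-coding genes, and 0 of 10 had an unadjusted p under 0.05. Among all 11253 genes tested, 0.00889% were called, 1 gene, the processed pseudogene Gm16304, which is named after its values were seen because it was the single call (log2 fold change 1.86 ± 0.12, SE; limma adjusted p = 0.0094). Of protein-coding genes 0% were called and 2.94% had an unadjusted p under 0.05. On the deposited scale the members called were again 0 of 10, with 0% of all genes called and 4.97% of protein-coding genes at an unadjusted p under 0.05. Relative to protein-coding genes the groups overlapped in all 10 members, while they did not overlap in 3.87% of protein-coding genes on the higher and 4.13% on the lower side. On that scale 4 members had a negative and 6 a positive log2 fold change, with a median of 0.08, against 59.9% negative and a median of -0.05 for protein-coding genes. As deposited all 10 were negative, with a median of -0.48, against 97.4% of protein-coding genes and a median of -0.45. On the deposited scale the estimates were -0.86 for Fosb, -0.95 for Egr1, -0.79 for Atf3, -0.53 for Fosl2, -0.43 for Fosl1 and -0.32 for Ier2, with limma adjusted p-values of 0.42 to 0.66.

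**Figure D2:**
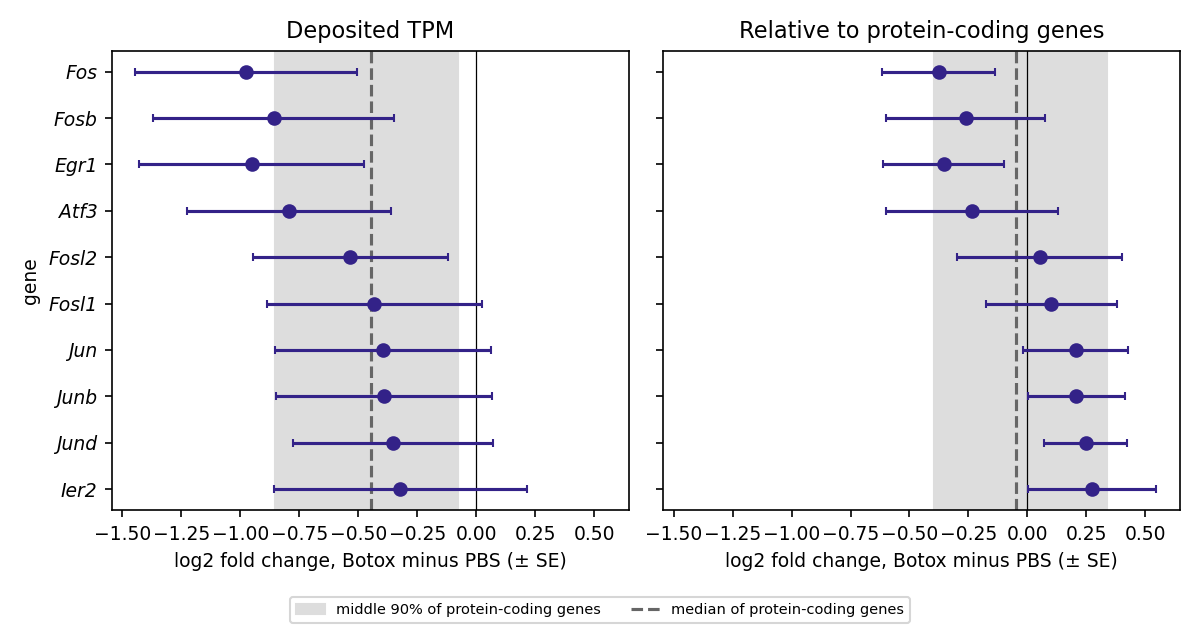
Log2 fold change ± SE (Botox minus PBS, limma) of each member on the deposited scale (left) and relative to protein-coding genes (right), with the median and the middle 90% of protein-coding genes. On the right the estimates run from -0.38 for Fos to 0.27 for Ier2, and no estimate passed the test on either side.

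Fos, Fosb and Egr1 had the most negative estimates relative to protein-coding genes together with Atf3, and they followed one another closely from library to library. Fos (ENSMUSG00000021250, chr12:85520664-85524048, plus strand, mm39), which encodes the founding partner of Jun in AP-1, was at 914, 941 and 919.9 TPM in PBS 1 to 3 and at 899, 402, 563 and 239.8 TPM in Botox 1 to 4. As deposited the groups did not overlap, with all Botox libraries lower, in 1 of 10 members, Fos, and in 28.8% of protein-coding genes. In 0 of 10 members and in 0.0276% of protein-coding genes all Botox libraries were higher. Divided by the size factor, Fos was at 666, 790.0 and 726 after PBS and at 863, 467, 474 and 513 after Botox. Botox 1 was then the highest of the 7 libraries and the other Botox libraries the lowest. The log2 fold change was -0.38 ± 0.24 (SE; limma adjusted p = 0.92) relative to protein-coding genes and -0.97 ± 0.47 (SE; limma adjusted p = 0.42) as deposited. On the relative scale 5.91% of protein-coding genes had a lower estimate.

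Fosb (ENSMUSG00000003545, chr7:19036621-19043977, minus strand), a Fos family gene with the same early kinetics, was at 476, 498 and 478 TPM in PBS 1 to 3 and at 626, 219, 269.6 and 136 TPM in Botox 1 to 4. Botox 1 exceeded every PBS library and the other Botox libraries lay under all of them. Its log2 fold change was -0.26 ± 0.34 (SE; limma adjusted p = 0.93) relative to protein-coding genes. Egr1 (ENSMUSG00000038418, chr18:34992876-34998038, plus strand), a zinc finger factor induced through serum response factor, was at 385, 351 and 333 TPM in PBS 1 to 3. In Botox 1 to 4 it was at 359.9, 147, 214 and 99.9 TPM. Botox 2 to 4 were again the lowest libraries, with Botox 1 inside the PBS range as deposited, and the log2 fold change was -0.35 ± 0.26 (SE; limma adjusted p = 0.92) relative to protein-coding genes. Relative to the PBS mean, Fos, Fosb and Egr1 differed by -0.71 to -0.57 (log2) in Botox 2, by -0.74 to -0.61 in Botox 3 and by -0.50 to -0.39 in Botox 4. In Botox 1 they differed by 0.25 to 0.66.

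The estimates of these 3 genes moved by over 1.5 times with the omission of Botox 1. Without Botox 1 the log2 fold changes relative to protein-coding genes were -0.59 ± 0.14 for Fos, -0.57 ± 0.16 for Fosb and -0.58 ± 0.15 for Egr1 (SE). The limma unadjusted p-values were then 0.00597, 0.0116 and 0.0082, and the adjusted p-values 0.34, 0.42 and 0.37. These 3 of 10 members had an unadjusted p under 0.05, as had 5.34% of protein-coding genes. In the same 3 all remaining Botox libraries were under the PBS libraries, as in 9.6% of protein-coding genes, and in 0 of 10 members and 6.68% of protein-coding genes they were higher. The omitted library was the highest Botox library in all 3 genes, so their lower estimates and parted groups follow from values already seen. The shares of protein-coding genes rest on no such choice, and no conclusion is drawn from the comparison. Botox 1 was also the library with the lowest macrophage marker sum, 173 scaled TPM against 539 to 1066 in the other 6 libraries. The part of this difference in the values of Fos, Fosb and Egr1 was not tested. All 3 genes moved the other way without Botox 2, to -0.30 for Fos, -0.17 for Fosb and -0.25 for Egr1. Without Botox 3 they were at -0.30, -0.10 and -0.26.

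**Figure D3:**
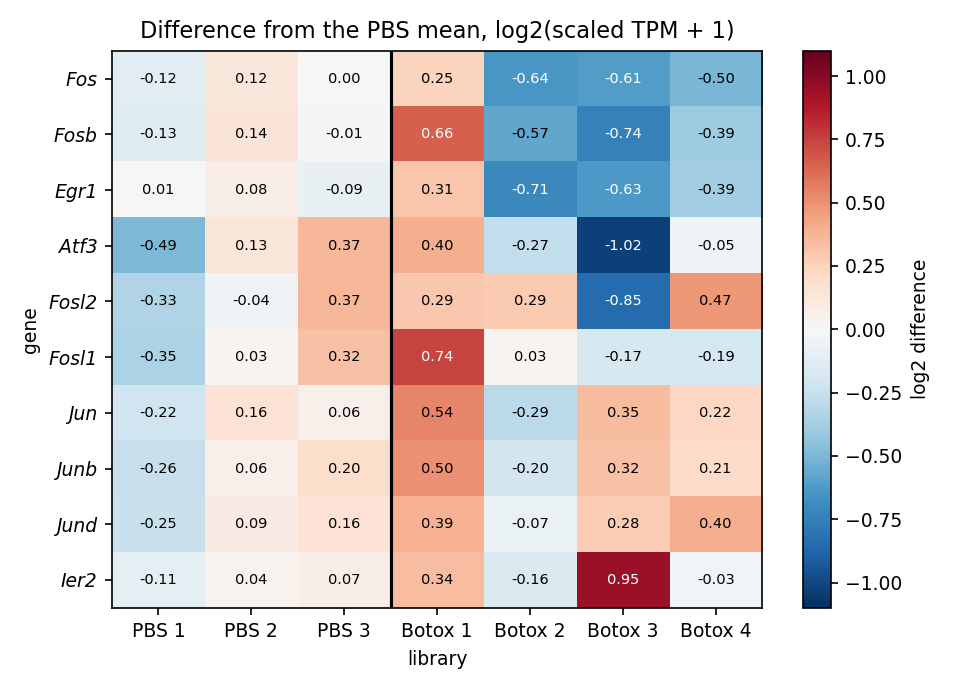
Difference of each library from the PBS mean on the log2(scaled TPM + 1) scale for the 10 members (rows) in the 7 libraries (columns), with a line between PBS and Botox. Botox 1 is above the PBS mean in all 10 members, and Botox 3 ranges from -1.02 for Atf3 to 0.95 for Ier2.

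The 3 Jun family genes stayed close to one another from library to library. Jun (ENSMUSG00000052684, chr4:94937271-94940460, minus strand), which can act as a dimer with itself or with Fos, was at 760.0, 855 and 849.6 TPM in PBS 1 to 3 and at 974, 453, 975 and 352 TPM in Botox 1 to 4. Divided by the size factor it was at 554, 718 and 671 after PBS and at 935, 526, 819 and 752 after Botox, so Botox 2 lay below the PBS libraries and the other Botox libraries above them. Junb (ENSMUSG00000052837, chr8:85701113-85705348, minus strand), a less active Jun protein that can restrain Jun, was at 468, 506 and 592 TPM after PBS. After Botox it was at 601, 305, 607 and 220.3 TPM. Jund (ENSMUSG00000071076, chr8:71151599-71153266, plus strand) was at 515, 565 and 629 TPM after PBS and at 607, 365, 642 and 275 TPM after Botox. The groups overlapped in all 3 genes on both scales. Relative to protein-coding genes the log2 fold changes were 0.20 ± 0.22 for Jun, 0.21 ± 0.21 for Junb and 0.25 ± 0.18 for Jund (SE; limma adjusted p = 0.92 for each). As deposited they were negative, at -0.39, -0.39 and -0.35. The estimates of Jun, Junb and Jund were smaller without PBS 1, at 0.097, 0.080 and 0.12, and without Botox 1, at 0.089, 0.11 and 0.20.

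They were larger without Botox 2, at 0.36, 0.33 and 0.34 for Jun, Junb and Jund. In that comparison the remaining Botox libraries exceeded the PBS libraries in 2 of 10 members, Jun and Jund, as in 6.73% of protein-coding genes, and were lower in 0 members and in 10.6%. No member then had an unadjusted limma p under 0.05, against 4.9% of protein-coding genes. Divided by the size factor, Botox 2 was the lowest Botox library in Jun, Junb and Jund, so their larger estimates follow from values already seen. Without Botox 2 and Botox 4, the libraries with few weakly detected genes, the remaining Botox libraries were higher than the PBS libraries in 4 of 10 members, Jun, Junb, Jund and Ier2, as in 14.7% of protein-coding genes, and lower in 0 members and in 16.8%. The log2 fold changes relative to protein-coding genes were then 0.44 ± 0.17 for Jun, 0.41 ± 0.19 for Junb, 0.33 ± 0.18 for Jund and 0.64 ± 0.22 for Ier2 (SE). The limma adjusted p-values were 0.53, 0.56, 0.60 and 0.53, and the unadjusted p was under 0.05 for 2 of 10 members, Jun and Ier2, and for 7.59% of protein-coding genes. Fos, at -0.18 ± 0.28 (SE), overlapped between groups in that comparison. Divided by the size factor, Botox 2 and Botox 4 were the lowest Botox libraries in Jun, Junb and Ier2. In Jund Botox 2 was the lowest and Botox 4 the highest. The larger estimates and parted groups of Jun, Junb, Jund and Ier2 therefore also follow from values already seen, and no conclusion is drawn from them.

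Ier2 (ENSMUSG00000053560, chr8:85387960-85389484, minus strand), whose product is a nuclear protein induced early by growth factors, was set apart by 1 library. It was at 292, 282 and 305 TPM in PBS 1 to 3 and at 303, 177, 529 and 105 TPM in Botox 1 to 4. Botox 3 was the highest library on both scales, with 445 scaled TPM against 206 to 290.3 in the other 6 libraries. The log2 fold change was 0.27 ± 0.27 (SE; limma adjusted p = 0.92) relative to protein-coding genes and 0.05 without Botox 3.

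Relative to protein-coding genes, Atf3 and Fosl2 were lowest in Botox 3, the library in which Ier2 was highest. Atf3 (ENSMUSG00000026628, chr1:190902493-190950237, minus strand), a bZIP repressor and activator induced by many stresses, was at 14.1, 19.6 and 24.7 TPM in PBS 1 to 3 and at 20.9, 10.5, 8.13 and 6.73 TPM in Botox 1 to 4. Divided by the size factor it was at 6.84 in Botox 3 and at 10.3 to 20.1 in the other libraries. Fosl2 (ENSMUSG00000029135, chr5:32293145-32315187, plus strand), which encodes FRA-2, was at 43.6, 46.8 and 66.3 TPM after PBS and at 51.7, 42.6, 26.1 and 26.4 TPM after Botox. On the scaled values Botox 3 was again the lowest, at 21.9 against 31.8 to 56.4 elsewhere. The log2 fold changes relative to protein-coding genes were -0.24 ± 0.36 for Atf3 and 0.05 ± 0.35 for Fosl2 (SE; limma adjusted p = 0.94 and 0.99). Without Botox 3 they were 0.03 and 0.35.

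Fosl1 (ENSMUSG00000024912, chr19:5497575-5505975, plus strand) encodes FRA-1, the Fos family protein best known from invasive triple-negative breast cancer cells. It was at 10.7, 12.4 and 16.5 TPM in PBS 1 to 3 and at 18.5, 8.97, 10.6 and 4.13 TPM in Botox 1 to 4. Botox 1 was the highest library on both scales, and the groups overlapped. The log2 fold change relative to protein-coding genes was 0.10 ± 0.28 (SE; limma adjusted p = 0.96), and -0.12 without Botox 1.

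Ratios between members within a library do not depend on the library's scale, apart from the pseudocount of 1 TPM. For 6 pairs chosen by role, an exact permutation test of the group means, two-sided, used all 35 ways to arrange the libraries, and 0.0571 is the smallest p it allows. TPM of Fos was 1.77, 1.67 and 1.46 times that of Jund in PBS 1 to 3 and 1.48, 1.101, 0.877 and 0.873 times in Botox 1 to 4. On the log2 scale the PBS mean was 0.70 ± 0.14 (SD, n = 3) and the Botox mean 0.08 ± 0.36 (SD, n = 4), a difference of -0.62 (exact permutation p = 0.114, 0.343 adjusted over 6 ratios). The groups overlapped only through Botox 1 and PBS 3. The TPM of Fosl1 was 0.0117, 0.0132 and 0.0179 times that of Fos in PBS 1 to 3 and 0.0206, 0.0223, 0.0189 and 0.0172 times in Botox 1 to 4, ranges that overlap through PBS 3 and Botox 4. With the pseudocount the mean log2 ratio of the PBS libraries was -6.05 ± 0.29 (SD, n = 3) and that of the Botox libraries -5.50 ± 0.12 (SD, n = 4). The difference was 0.54 (exact permutation p = 0.0571, the smallest possible, and 0.343 adjusted), with all Botox libraries then above the PBS libraries. With a pseudocount of 0.1 the groups overlapped and the exact permutation p was 0.114, at a difference of 0.49.

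The other ratios differed less. Junb to Jun was 0.616, 0.591 and 0.696 in PBS 1 to 3 and 0.616, 0.673, 0.622 and 0.626 in Botox 1 to 4, a log2 difference of 0.00 (exact permutation p = 0.857, 0.857 adjusted). Egr1 to Fos was 0.422, 0.373 and 0.362 after PBS and 0.4003, 0.365, 0.3805 and 0.417 after Botox, a log2 difference of 0.02 (exact permutation p = 0.80, 0.857 adjusted). In both pairs the Botox values lay within or close to the PBS range. Fosb to Fos was 0.519 to 0.529 in the PBS libraries and 0.696, 0.546, 0.478 and 0.566 in Botox 1 to 4, a log2 difference of 0.12 (exact permutation p = 0.514, 0.857 adjusted) that was 0.017 without Botox 1 and 0.20 without Botox 3. Fosl1 to Fosl2 was 0.246 to 0.266 after PBS and 0.359, 0.211, 0.408 and 0.157 after Botox, a log2 difference of 0.10 (exact permutation p = 0.80, 0.857 adjusted). For these 2 ratios the Botox libraries spread to both sides of the PBS libraries.

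**Figure D4:**
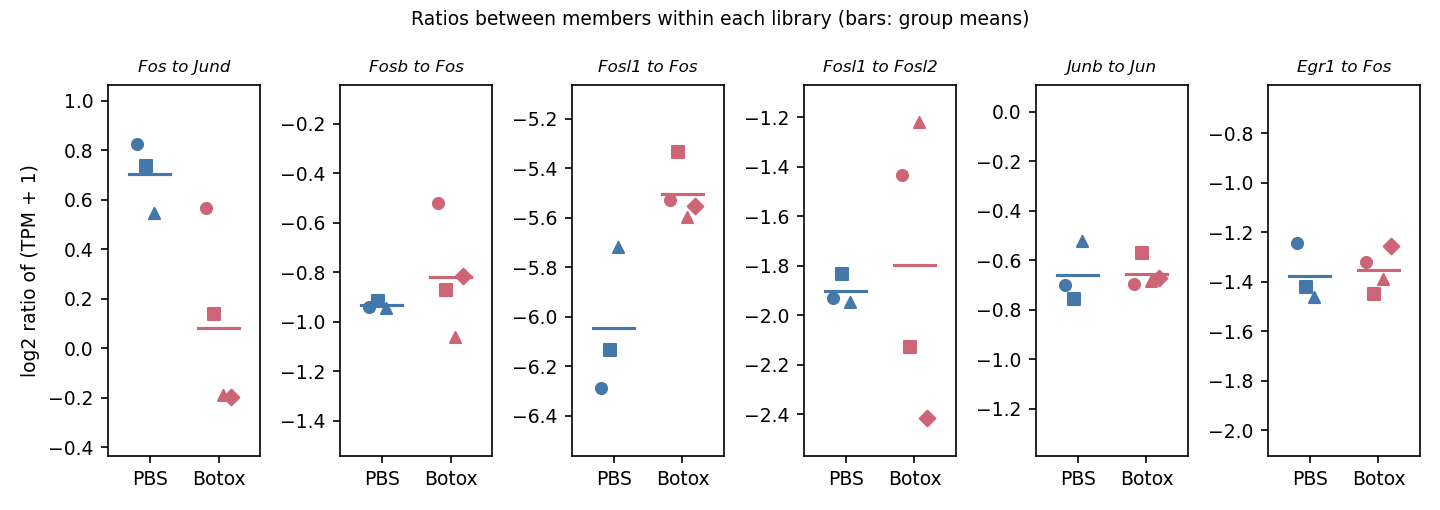
Log2 ratio of (TPM + 1) between pairs of members in each library, PBS in blue and Botox in red, with bars at the group means and axes of equal length. Fos to Jund runs from 0.83 to 0.55 in PBS and from 0.56 to -0.20 in Botox, while Junb to Jun and Egr1 to Fos lie at nearly the same level in both groups.

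Likeness of profiles was measured as the root mean square difference of log2(scaled TPM + 1) over the 7 libraries after centring each gene on its mean, as a description with no test. Egr1 lay 0.083 from Fos, and 1 of 2269 other nuclear protein-coding genes with a mean of at least 5 TPM was closer, against a median distance of 0.396. Fosb lay 0.157 from Fos with 6 genes closer. Jun and Junb were the closest pair of members, at 0.076. Jund, at 0.395, was about as far from Fos as the median gene, and Ier2 was farther, at 0.528. The 5 non-members closest to Fos were Ezr (0.080), which encodes the membrane linker ezrin, the pseudokinase gene Trib1 (0.109), the epithelial factor gene Klf5 (0.122), the membrane protein gene Emp1 (0.125) and Phlda1 (0.139). Those closest to Fosl1 were Nfkbiz (0.183), which encodes an inducible IκB protein, Vasn (0.193), the early response gene Ier3 (0.2002), Trib1 (0.204) and Tsc22d1 (0.204).

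Other genes of the pathway also gave no call. Of 44 further immediate early genes 43 were tested, 13 with a positive and 30 with a negative log2 fold change relative to protein-coding genes. The median was -0.10, against -0.05 for protein-coding genes, with 0 called by limma, 0 at an unadjusted p under 0.05 and 0 with groups that did not overlap. The lowest p-values belonged to the matricellular gene Ccn1, with a PBS mean of 102 ± 27.5 TPM (SD, n = 3) and a Botox mean of 47.7 ± 31.3 TPM (SD, n = 4), and to Klf6, at 144 ± 9.70 and 79.6 ± 30.6 TPM. Their log2 fold changes were -0.70 ± 0.35 and -0.34 ± 0.20 (SE). In the other direction Rhob, a small GTPase gene, and Btg2, an antiproliferative gene, were at 0.27 ± 0.17 and 0.57 ± 0.37 (SE). As deposited these 2 genes were at -0.33 and -0.01.

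Of 24 other bZIP genes and dimer partners 18 were tested, 9 in each direction, with a median of -0.01. Limma called 0 of them, 1 had an unadjusted p under 0.05, and the groups did not overlap in 3, with 1 higher and 2 lower after Botox, against 3.87% of protein-coding genes on the higher and 4.13% on the lower side. Nfe2l2, which encodes the oxidative stress factor NRF2, had a PBS mean of 8.41 ± 0.671 TPM (SD, n = 3) and a Botox mean of 4.49 ± 1.51 TPM (SD, n = 4). Its log2 fold change relative to protein-coding genes was -0.33 ± 0.13 (SE; limma adjusted p = 0.92). Atf2, a Jun partner, was at -0.31 ± 0.14, the small Maf gene Mafg at 0.42 ± 0.19 and Creb3 at 0.44 ± 0.20 (SE). As deposited Mafg and Creb3 were at -0.17 and -0.02.

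Upstream signaling genes (the EGF receptor, RAS, MAP kinases and their targets, SRF and ternary complex factors) had 22 of 30 genes tested, 6 positive and 16 negative, with a median of -0.07. Limma called 0, and 0 had an unadjusted p under 0.05. In 1 of the 22 tested all Botox libraries were lower than the PBS libraries, as in 4.13% of protein-coding genes. That gene was Rps6ka3, which encodes the ERK-activated kinase RSK2, with a PBS mean of 1.76 ± 0.199 TPM (SD, n = 3) and a Botox mean of 0.823 ± 0.405 TPM (SD, n = 4). Its log2 fold change relative to protein-coding genes was -0.35 ± 0.16 (SE; limma adjusted p = 0.92). Mapk7, the ERK5 gene, was at 0.42 ± 0.19 and Map2k2, the MEK2 gene, at 0.26 ± 0.17 (log2 fold change ± SE). As deposited Mapk7 and Map2k2 were at -0.15 and -0.12.

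Genes known as AP-1 targets had 26 of 30 members tested, 9 positive and 17 negative, with a median of -0.10. Limma called 0, 1 had an unadjusted p under 0.05 and 1 had groups that did not overlap, on the lower side, against 2.94% and 4.13% of protein-coding genes. The hyaluronan receptor gene Cd44 was at -0.39 ± 0.16 (SE; limma unadjusted p = 0.0442, adjusted p = 0.92). The cyclin D1 gene Ccnd1, whose Botox libraries all lay below the PBS libraries, had a PBS mean of 184 ± 27.2 TPM (SD, n = 3) and a Botox mean of 104 ± 51.4 TPM (SD, n = 4). Its estimate was -0.39 ± 0.19 (log2, SE). The integrin gene Itga5 and the cytokine gene Tgfb1 were at 0.36 ± 0.25 and 0.20 ± 0.23 (SE), and as deposited at -0.15 and -0.35. Tgfb1 also stands in the EGR1 list, and Trib1, Ier3 and Phlda1, named by their profiles, stand in the lists of early genes or AP-1 targets.

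Corepressors and known targets of EGR1 had 9 of 10 genes tested, 4 positive and 5 negative, with a median of -0.18. Limma called 0 of them, with 0 at an unadjusted p under 0.05. In 1 of the 9 all Botox libraries were lower than the PBS libraries, against 4.13% of protein-coding genes. The tissue factor gene F3 was at -0.34 ± 0.27 and the growth factor gene Pdgfa at 0.19 ± 0.21 (log2 fold change ± SE), the latter at -0.17 as deposited. Heat shock genes, also induced by stress and handling, were all tested, 13 of 13. Of these 9 were positive and 4 negative, with a median of 0.09, and limma called 0, with 0 at an unadjusted p under 0.05 and 0 with groups that did not overlap. The mitochondrial chaperonin gene Hspd1 and the cochaperone gene Bag3 were at -0.43 ± 0.21 and -0.44 ± 0.28, and the chaperone genes Hspb1 and Hspa8 at 0.29 ± 0.32 and 0.25 ± 0.31 (log2 fold change ± SE). As deposited Hspb1 and Hspa8 were at -0.12 and -0.32.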

How the data were processed

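Total RNA of sorted 4T1 cells was depleted of ribosomal RNA and sequenced as stranded paired-end libraries, per the labels' protocols. The submitters' processing notes name Bowtie2 2.2.5, SAMtools and DESeq2 and the build mm39, with no role or order. The sources used here name no read counter or strand setting. Values in the authors' deposited table are TPM made with genomic span as gene length, with 0.001 added to every value, which was subtracted. Reads were estimated from the step of TPM times span. Within 0.1 of a whole number lay 89.3% to 90.7% of values under 20 reads, so the estimates serve only to describe depth, and they cover counting error only.

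Genes at 1 TPM or more in 3 or more libraries were fitted on log2(scaled TPM + 1) with limma 3.58.1 in R 4.3.3, with an intensity trend, the group as the only term, two-sided tests and Benjamini-Hochberg adjustment over 11253 genes. Fold changes on this scale understate low genes. Size factors used nuclear protein-coding genes with at least 1 TPM in all libraries. The fit was tested on simulated data with planted changes larger than any member's estimate. That test does not show whether changes of the members' size would be found. Ratios, profiles and motifs used Python 3.11.15, numpy 2.4.6, pandas 2.3.3 and scipy 1.17.1. P-values measure the spread between these libraries, each from its own mouse, in which differences between mice and between preparations cannot be told apart. Alternatives were other scalings, pseudocounts and filters, protein-coding genes alone, array weights, a replicate block and each library left out.

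All members, the 2 genes of smallest p in each direction of each list, and the 5 genes nearest to Fos and to Fosl1 were named, except list genes that are not reported here. Members and lists were chosen with earlier results of these data known. A deposited table of KEGG sets names no genes and was not used here.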

Additional observations from a re-analysis of the deposited data

Results flagged for a closer look

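Of 26 sets of 4 Botox values checked for a distant library, 2 had one, and chance flags about 1 set in 20. Fos was at 863 scaled TPM in Botox 1 and at 467, 474 and 513 in Botox 2 to 4, so that Botox 1 stood 0.884 of the range away from the nearest library. Fosb was at 601 scaled TPM in Botox 1 and at 255, 227 and 290.1 in Botox 2 to 4, with a gap of 0.83 of the range. The profiles of these 2 genes over the libraries lay 0.157 apart (root mean square, log2). Botox 1 also held the lowest macrophage marker sum, 173 scaled TPM, whose part in these values was not tested.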

How the results depend on the processing

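In each of 19 alternatives 0 of 10 members passed the test. The 1 gene called over all genes became 0 as deposited, with a filter at 5 TPM, with protein-coding genes only, with the replicate block and without Botox 2 and Botox 4. It became 24 with no filter on low values, and 0 to 35 when single libraries were left out, 35 without Botox 1. Fos, Fosb and Egr1 kept a negative sign in all 19 alternatives, at -0.97 to -0.18, -0.86 to -0.04 and -0.95 to -0.16. Jun, Junb, Jund and Ier2 changed sign only as deposited (-0.39, -0.39, -0.35 and -0.32), as did Fosl1 (-0.43) and Fosl2 (-0.53), which also did so in other alternatives. When single libraries were left out, Fos was at -0.59 to -0.30, Fosb at -0.57 to -0.10, Egr1 at -0.58 to -0.25, Jun at 0.089 to 0.36, Junb at 0.080 to 0.33, Jund at 0.12 to 0.34 and Ier2 at 0.049 to 0.41. Fosl1 was at -0.12 to 0.26 when single libraries were left out. Fosl2 was at -0.088 with the replicate block, at -0.28 without Botox 2 and Botox 4, and at -0.11 to 0.35 when single libraries were left out. Atf3 was at -0.48 to 0.026 when single libraries were left out. The log2 ratio of Fosl1 to Fosl2 was at -0.090 to 0.31 and that of Egr1 to Fos at -0.021 to 0.089 under the same omissions, that of Fosb to Fos at 0.017 to 0.20, that of Fos to Jund at -0.78 to -0.53 and that of Fosl1 to Fos at 0.42 to 0.71. Without Botox 2 and Botox 4 the ratio of Fosl1 to Fosl2 was at 0.58. That of Junb to Jun was at -0.045 to 0.073, and at -0.031 without Botox 2 and Botox 4. The cause of these changes was not tested. Deviations from the group means correlated at 0.27, -0.13 and -0.29 for the pairs numbered 1 to 3 across protein-coding genes. Pairs of unlike number correlated at -0.39 to 0.37. Deviations within a group sum to 0, so these correlations cannot decide whether replicate numbers pair samples. The block leaves Botox 4 without a partner. The replicate block gave -0.088 for Fosl2 and 0 calls.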
